A study of Homo sapiens with 4 samples.

Results

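SW1990, a human pancreatic cancer cell line, was compared with and without a single 10 Gy dose of X-rays. The comparison covers the 15731 genes, of 58174 with an Ensembl gene identifier in the deposited table, whose FPKM (fragments mapped, scaled for transcript length and library size) was at least 1 in at least 1 of the 2 SW1990 libraries. The series holds 4 libraries, 2 of them from SW1990 cells, and there was 1 library per condition. Both groups were the same line at the same labelled passages in serum-containing medium, one left unirradiated and the other irradiated. The study used irradiated cells of this kind as a model of dying tumor cells, and the interval between irradiation and RNA extraction is not given in the sources used here. The unirradiated library held 17851815 counts on named genes and the irradiated library 18305682.

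Ionizing radiation breaks DNA, and in cells with a working p53 the damage kinases stabilise this transcription factor, which switches on genes of cell cycle arrest, repair and death. Replication-dependent histone genes are transcribed in S phase and their mRNAs end in a stem-loop in place of a poly(A) tail, so their abundance follows DNA synthesis. Injured epithelial cells can also display ligands that natural killer and T cells recognise, and can switch on immediate-early factors such as the AP-1 proteins.

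Because no condition was replicated, no difference below has a test and none could be set against the spread between cultures. Each value is the log2 ratio of scaled counts, irradiated over unirradiated, with an exact 95% Clopper-Pearson interval that covers counting error only. A gene is called past 2-fold when its ratio exceeds 2-fold and this interval lies on 1 side of 0. In bulk RNA, a change in the share of cells in a given state and a change per cell cannot be told apart.

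By this rule 1001 of 15731 genes were past 2-fold, which is 6.36% of those measured, with 501 higher after irradiation (3.18%) and 500 lower (3.18%). The median log2 ratio was -0.0039, and 80.9% of genes with a ratio differed by less than 1.5-fold. Among the 11718 protein-coding genes, 325 were higher (2.77%) and 241 lower (2.06%), together 4.83%, and this is the background for the gene lists below. The deposited FPKM values moved past 2-fold in the same direction for 836 genes (5.31%), and for 11 of the 1001 the FPKM ratio pointed the other way. The share of genes past 2-fold was 15.8% where the mean count was under 30 and 2.78% in the band with the highest mean counts. Of all genes measured, 858 reached an FPKM of 1 in the irradiated library only and 923 in the unirradiated library only.

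**Figure D1:**
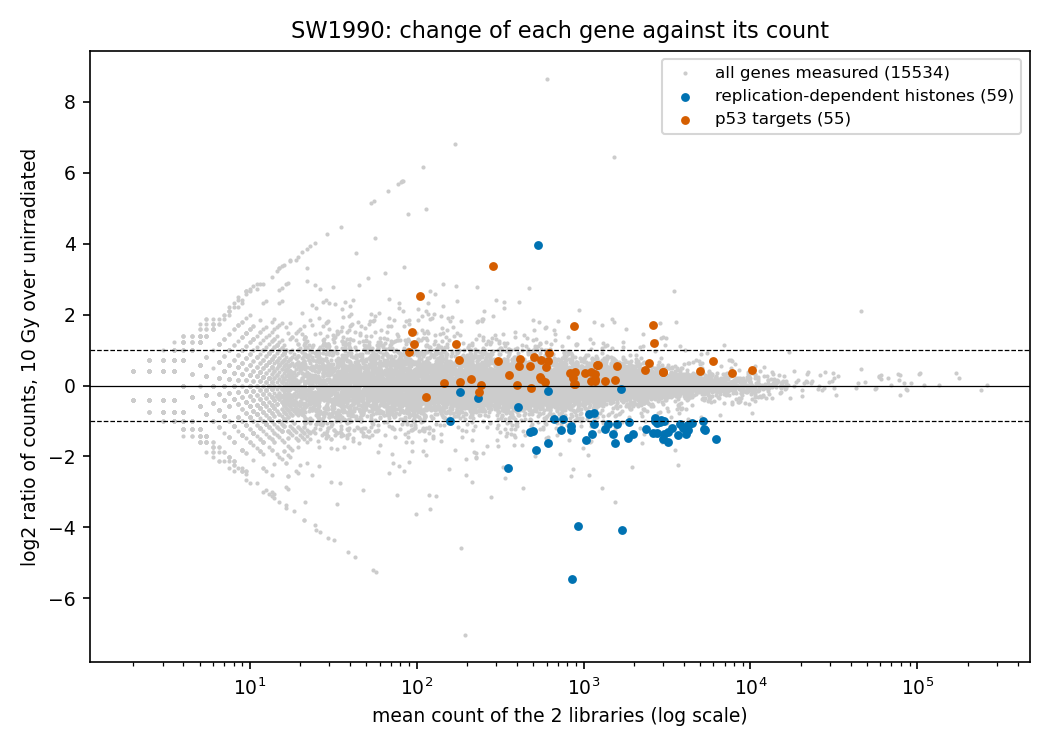
Each point is 1 gene, with its mean count over both libraries (log scale) on the x axis and its log2 count ratio, 10 Gy over unirradiated, on the y axis; dashed lines mark 2-fold. All genes are grey, the 59 replication-dependent histones are blue and lie below 0 except HIST1H2BN, and the 55 p53 targets are orange and lie above 0 except 3.

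The cells carried the RNA of ductal epithelium in both conditions. All 10 ductal markers were measured, led by the keratins KRT8, at 1352 FPKM unirradiated and 1888 irradiated, and KRT18, at 944 and 1062 FPKM. EPCAM was at 217 and 218 FPKM, while SOX9, a ductal and progenitor transcription factor, went from 8425 to 4760 counts, a log2 ratio of -0.83 (-0.88 to -0.78). No acinar, endocrine or endothelial marker reached an FPKM of 1, although the endothelial marker VWF had 14 and 50 counts. Of 6 fibroblast markers COL1A1 and PDGFRB were measured, with a summed FPKM of 2.96 unirradiated and 3.88 irradiated. Of these 2, 1 was lower past 2-fold (-1.04) and the other had a log2 ratio of 0.67. COL1A2, COL3A1, DCN and LUM were at 0 counts in both libraries. Of 6 immune markers only CD14 was measured, at 0.923 and 1.31 FPKM, and PTPRC, the pan-leukocyte marker, had 0 and 2 counts.

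The replication-dependent histones, which package newly made DNA, were lower in the irradiated library. Of 68 genes listed, 59 were measured, all reaching an FPKM of 1 in both libraries. Of these, 45 were lower past 2-fold, or 46 past 2-fold in all (78.0%, against 4.83% of protein-coding genes), and 58 had a negative ratio. The median log2 ratio was -1.22, and the summed FPKM of the 59 genes was 15573 in the unirradiated and 6457 in the irradiated library. All families shared the direction. The 4 linker H1 genes had a median of -1.42, the 16 H2A genes -1.16, the 15 H2B genes -1.30, the 11 H3 genes -0.99 and the 13 H4 genes -1.09.

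The families differed in spread, with H1 from -1.53 to -1.31, H2A from -4.07 to -0.35, H2B from -5.45 to 3.97, H3 from -1.59 to -0.17 and H4 from -1.62 to -0.11. HIST1H2BK, an H2B gene with the highest FPKM of its family, had 9187 counts in the unirradiated and 3237 in the irradiated library, a log2 ratio of -1.51 (-1.57 to -1.45). The lowest H3 gene, HIST1H3D, went from 4821 to 1606 counts (-1.59, -1.67 to -1.51). The lowest H4 gene, HIST1H4A, went from 922 to 302 counts (-1.62, -1.81 to -1.43), and the lowest linker histone gene, HIST1H1D, from 1546 to 537 (-1.53, -1.68 to -1.39).

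A few members, singled out after their values were seen, stood away from the rest. HIST1H2BE went from 1657 to 38 counts (-5.45, in FPKM -6.81), HIST1H2AC from 3221 to 193 (-4.07) and HIST1H2AD from 1747 to 113 (-3.96). HIST1H2BN went the other way, from 64 to 1004 counts (3.97, 3.60 to 4.35). The row of HIST1H2BN shares exon sequence on its strand with HIST1H2AL, which went from 867 to 455 counts. That of HIST1H2AD shares exon sequence on its strand with AL031777.3. Without these 4 genes, the other 55 ranged from -2.33 to -0.11 with a median of -1.20. The 46 histone rows of 1 exon had a median of -1.22 and ranged from -3.96, the value of HIST1H2AD, to -0.35. HIST1H3E was the exception between measures, with 193 and 172 counts but 3.50 and 8.41 FPKM.

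Histones that are made outside S phase moved less. None of the 10 replication-independent histone genes measured was past 2-fold and their median was -0.23, from H1F0 at -0.95 to CENPA at 0.42. Of the 18 genes that process histone transcripts 1 was past 2-fold, ZNF473, a zinc finger protein of the histone pre-mRNA processing machinery, which went from 877 to 318 counts (-1.47, -1.66 to -1.28). The other S-phase genes did not share the histone values. The 44 replication genes had none past 2-fold and a median of -0.04, the 22 nucleotide synthesis genes none and 0.01, and the 13 genes of the E2F and RB families none and -0.03.

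Promoters of H2B genes are shown because 13 of the 15 H2B genes were lower past 2-fold, HIST1H2BN being higher. Promoter sequence from RefSeq (GRCh38.p14) was matched to 9598 of 11718 protein-coding genes (81.9%), and 7 motifs were searched on both strands in the 250 bases before the annotated start. The octamer ATTTGCAT, the binding sequence of OCT1 in H2B promoters, was present in 11 of 15 H2B promoters (73.3%), in 10 of 15 H2A promoters, in 1 of 10 H3 promoters and in none of the 11 H4 promoters, against 1.35% of all promoters searched. In 7 H2B promoters it stood between 46 and 49 bases before the start. The box TATAAA was found in 37 of 54 histone promoters (68.5%, against 5.30% of all) and CCAAT in 45 of 54 (83.3%, against 35.7%), but CCAAT in only 2 of the 11 H4 promoters. TTTCGCGC, an E2F-type sequence, was found in 11 of the 54 (20.4%, against 0.969%). A match is a description of these letters and not of binding. In the sequences of 4 of these H2B promoters the octamer is in capitals.
HIST1H2BM (chr6:27814938-27815017, plus strand): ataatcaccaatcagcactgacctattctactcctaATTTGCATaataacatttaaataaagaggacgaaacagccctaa
HIST2H2BF (chr1:149812376-149812455, minus strand): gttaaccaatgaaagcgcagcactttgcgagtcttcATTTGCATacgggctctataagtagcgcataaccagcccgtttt
HIST1H2BK (chr6:27146861-27146940, minus strand): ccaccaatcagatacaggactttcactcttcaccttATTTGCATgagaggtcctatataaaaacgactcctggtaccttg
HIST1H2BH (chr6:26251529-26251608, plus strand): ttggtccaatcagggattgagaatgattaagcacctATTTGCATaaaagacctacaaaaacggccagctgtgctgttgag
The counts of these genes were 591 and 118 for HIST1H2BM, 4436 and 1551 for HIST2H2BF, and 1156 and 526 for HIST1H2BH.

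The p53 targets mostly had ratios of the opposite sign. Of 59 listed genes 55 were measured, 2 of them because of the irradiated library alone. Of the 55, 8 were higher past 2-fold (14.5%, against 4.83% of protein-coding genes in either direction), none was lower, and 52 had a positive ratio. The median was 0.37, and it was also 0.37 over the 53 members at an FPKM of 1 or more in both libraries.

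The 17 genes of arrest and feedback had a median of 0.68, or 0.57 over the 15 at an FPKM of 1 in both libraries, since BTG2 and TP53INP1 were measured through the irradiated library only. Without these, 6 of 53 p53 targets were higher past 2-fold. BTG2, an antiproliferative gene, had 51 counts in the unirradiated and 525 in the irradiated library, a 10.3-fold difference (log2 3.36, 2.94 to 3.80). CDKN1A, which encodes the CDK inhibitor p21, had 1229 and 4002 counts (1.70, 1.61 to 1.79). PLK2, a polo-like kinase of the damage response, had 419 and 1346 counts (1.68, 1.52 to 1.84) but an FPKM log2 ratio of 1.02, and TP53INP1 59 and 133 (1.17, 0.71 to 1.63). MDM2, the ubiquitin ligase that degrades p53, stayed under 2-fold with 4522 and 7373 counts (0.70, 0.65 to 0.75), as did SESN2 (0.81) and GADD45A (0.68). CCNG2 had the lowest value of the list, -0.32 (-0.72 to 0.06).

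Among 16 death genes the median was 0.36 and 2 were higher past 2-fold. TNFRSF10C, a TRAIL decoy receptor, went from 31 to 179 counts (2.52, 1.97 to 3.12, in FPKM 1.92). The signalling TRAIL receptor gene TNFRSF10B went from 2002 to 2699 (0.43). BBC3, which encodes the BH3-only protein PUMA, went from 106 to 239 counts (1.17, 0.83 to 1.51), and FAS from 234 to 380 (0.69, 0.46 to 0.94). The 22 repair and metabolism genes had a median of 0.36. PTP4A1, a phosphatase, went from 1605 to 3682 counts and SPATA18, a mitochondrial quality control gene, from 49 to 139 (FPKM log2 ratio 0.92), and the damage recognition gene DDB2 from 432 to 813 (0.91, 0.74 to 1.08).

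**Figure D2:**
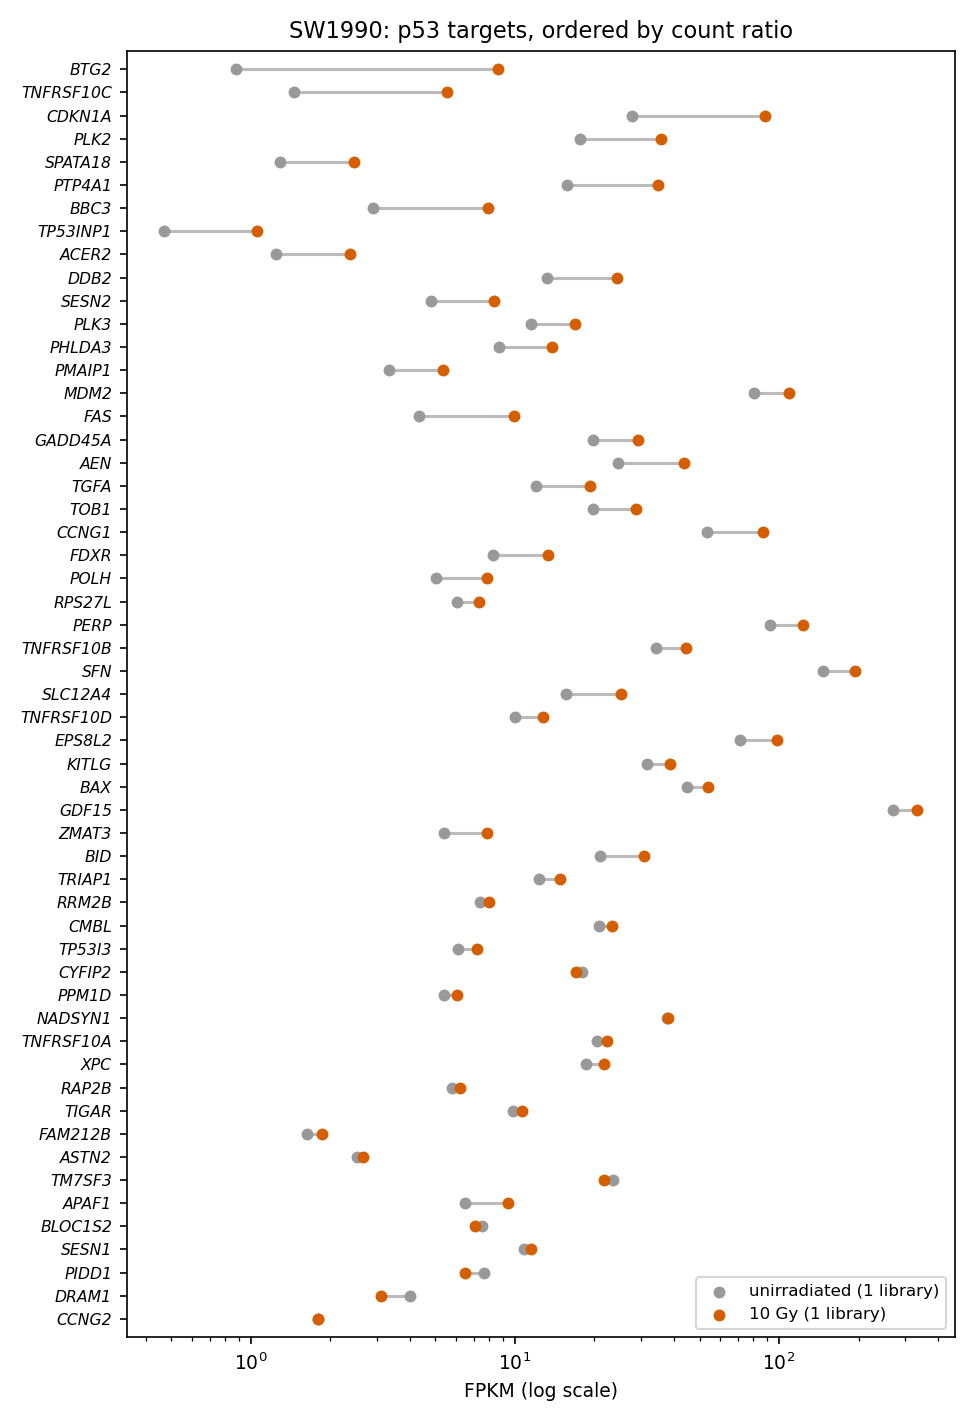
FPKM on a log axis of the 55 p53 targets measured, unirradiated in grey and irradiated in orange, ordered by count ratio with the highest at the top. The irradiated FPKM is higher in 49 of 55 genes, with the widest gaps at BTG2, TNFRSF10C and CDKN1A.

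No p53-type pair of half-sites, CATGNNNNNNCATG, was found in the 46 target promoters searched, and 0.135% of all promoters held it, so this window shows none of these letters. MIR34AHG, the host transcript of a p53-dependent microRNA, went from 218 to 365 counts (0.74, 0.49 to 0.99).

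The genes that sense and mend breaks stayed near 0. None of the 25 damage sensing and checkpoint genes, 22 homologous recombination genes, 11 end joining genes and 13 Fanconi anaemia genes was past 2-fold, and their medians were 0.01, -0.04, 0.04 and -0.04. RAD50 came closest, with 1819 and 3557 counts (0.96) but an FPKM log2 ratio of 0.14. It overlaps the row AC116366.3 on the same strand, which went from 1448 to 286 counts. GTF2H4, a subunit of TFIIH in nucleotide excision repair, went from 503 to 187 counts (-1.43, -1.68 to -1.19), shares exon sequence on its strand with VARS2, and was the single member of 35 excision repair genes past 2-fold.

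Of 63 mitotic genes measured, 42 had a positive ratio, the median was 0.12 in counts and 0.07 in FPKM, and FOXM1, a transcription factor of G2 and M phase genes, was the single one past 2-fold, with 1596 and 3816 counts (1.25, 1.17 to 1.34) and an FPKM log2 ratio of 0.85. The 11 G1 cyclin and kinase genes had a median of 0.18 and none past 2-fold. Of the CDK inhibitors outside the p53 list, none of 5 was past 2-fold. Of 14 tubulin genes 1 was past 2-fold, TUBB2B, from 580 to 183 counts (-1.67, -1.92 to -1.43).

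In the death machinery the BCL2 family genes outside the p53 list had 10 of 11 members above 0, a median of 0.23 and none past 2-fold. BBC3, a family member that was higher past 2-fold, is counted among the p53 targets above. BCL2L11, which encodes the death activator BIM, went from 144 to 271 counts (0.91). Of 23 death receptor, caspase and gasdermin genes 3 were past 2-fold. CASP10, an initiator caspase, went from 92 to 259 counts (1.49, 1.14 to 1.85), beside an opposite change in its neighbour CFLAR. XIAP, an inhibitor of caspases, went from 1021 to 508 (-1.01, -1.17 to -0.86) with an FPKM log2 ratio of -0.68, and GSDMB from 472 to 227 (-1.06) with an FPKM log2 ratio of -0.19.

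Of 23 ligands seen by natural killer and T cells 13 were measured, and 5 of the 13 were higher past 2-fold (38.5%) and none lower, with a median of 0.41. RAET1G was measured through the irradiated library only, and without it 4 of 12 were higher. Among them are stress-induced ligands of the receptor NKG2D. RAET1L went from 52 to 146 counts (1.48, 1.02 to 1.97), RAET1E from 35 to 83 (1.24, 0.65 to 1.85) and RAET1G from 8 to 33 (2.04, 0.90 to 3.36). These are paralogs, and how reads were split among them was not tested. Their relative ULBP2 went from 246 to 471 counts (0.93, 0.71 to 1.16), while MICA, another NKG2D ligand, went from 461 to 368 (-0.33, -0.53 to -0.13). TNFSF9, the 4-1BB ligand, went from 59 to 146 counts (1.3, 0.86 to 1.76) and PVR, a nectin-like ligand, from 1028 to 2438 (1.24, 1.13 to 1.35). CD274, which encodes PD-L1 and was chosen after its values were seen, was under an FPKM of 1 in both libraries, with 29 and 25 counts.

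Interferon and inflammatory lists had few members past 2-fold. Of 34 interferon-stimulated genes 1 was past 2-fold, IFIT1, from 33 to 70 counts (1.08, 0.46 to 1.72). IFIT1 was measured through the irradiated library only, and none of the 31 at an FPKM of 1 in both libraries was past 2-fold. The 13 signalling genes had a median of -0.01. The 21 effectors had a median of 0.37, or 0.33 over the 18 at an FPKM of 1 in both libraries, since 2 were measured through the irradiated and 1 through the unirradiated library only. HLA-B, a class I antigen presentation gene, went from 978 to 1607 counts (0.71) and none of the 17 antigen presentation genes was past 2-fold. Of 26 secreted inflammatory factors 18 had a positive ratio and the median was 0.30, while the 2 past 2-fold were both lower. ICAM1, an adhesion molecule, went from 579 to 1102 counts (0.92, 0.78 to 1.07). The neutrophil chemokine genes CXCL5 and CXCL8 went from 795 to 382 counts (-1.06, -1.24 to -0.88) and from 80 to 33 (-1.28, -1.91 to -0.68), the second with an FPKM log2 ratio of -0.62. None of 19 NF-kB pathway genes was past 2-fold, with a median of 0.03. The prostaglandin synthase gene PTGS2 went from 153 to 255 counts (0.73) and PTGES from 574 to 968 (0.75), and none of the 9 prostaglandin pathway genes was past 2-fold.

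Immediate-early genes had mostly positive ratios. Of 27 measured, all at an FPKM of 1 in both libraries, 22 had a positive ratio, against 51.6% of protein-coding genes. Of the 27, 3 were higher past 2-fold and none lower, and the median was 0.40. MYC, a growth-promoting transcription factor, went from 94 to 505 counts (2.42, 2.10 to 2.75). FOSL1, an AP-1 subunit, went from 337 to 730 (1.11, 0.92 to 1.3) and IER2 from 564 to 1247 (1.14, 0.99 to 1.29), the latter with an FPKM log2 ratio of 0.93. Among the 5 members with a negative ratio were the AP-1 subunits FOS, the lowest of the list, from 152 to 118 counts (-0.37), and JUN, from 1507 to 1362 (-0.15). The 20 genes of the MYC network had a median of -0.01 and MYC was the single one past 2-fold.

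The AP-1 sequence TGACTCA was found in 15 of 168 promoters of genes higher past 2-fold in counts and FPKM (8.93%), in 4 of 90 promoters of genes that were lower, histones aside (4.44%), and in 2.42% of all promoters searched. Many of the 168 were measured through the irradiated library only, and over the 80 at an FPKM of 1 in both libraries the AP-1 sequence was found in 8. The E-box CACGTG was found in 16 of the 168 (9.52%), in 11 of the 80 and in 9.12% of all promoters. Upstream stretches of 3 genes that hold the AP-1 sequence are shown as examples from genes higher past 2-fold, CAPN8 having been chosen after its values were seen, with TGACTCA or its reverse complement TGAGTCA in capitals.
RAET1L (chr6:150025555-150025634, minus strand): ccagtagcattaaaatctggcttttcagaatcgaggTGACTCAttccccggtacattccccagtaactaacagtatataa
CAPN8 (chr1:223665752-223665831, minus strand): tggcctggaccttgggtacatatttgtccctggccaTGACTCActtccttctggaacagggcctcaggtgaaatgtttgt
EGF (chr4:109912803-109912882, plus strand): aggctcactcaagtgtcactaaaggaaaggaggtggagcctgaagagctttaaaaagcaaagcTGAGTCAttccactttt
The counts were 76 and 212 for CAPN8, a calpain of gastrointestinal epithelium, and 51 and 122 for EGF.

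Growth factor and Wnt genes were split. EGF, a ligand of the EGF receptor, had a log2 ratio of 1.25 (0.77 to 1.75), while EREG, the ligand with the highest FPKM in the unirradiated library, went from 8984 to 6590 counts (-0.45, -0.50 to -0.41). The receptor gene EGFR went from 1577 to 3596 counts (1.18), yet from 17.1 to 21.4 FPKM, an FPKM log2 ratio of 0.32. Of 31 Wnt pathway genes 5 were past 2-fold, and 27 of the 31 reached an FPKM of 1 in both libraries. WNT7B and WNT11 were measured through the irradiated and WNT5B through the unirradiated library only. The ligand genes WNT7B, from 34 to 98 counts, and WNT11, from 20 to 52, and the secreted inhibitor gene DKK1, from 69 to 215 (1.63, 1.24 to 2.05), were higher, and the ligand gene WNT5B, from 142 to 27 (-2.40, -3.05 to -1.80, in FPKM -1.59), and the transcription factor gene TCF7, from 787 to 351 (-1.17, -1.36 to -0.99), were lower. TGF-beta genes had a median of -0.03, with TGFB3 lower past 2-fold (89 and 44 counts) of 29. TGFB3 was measured through the unirradiated library only, and none of the other 28 was past 2-fold. Of 17 Hippo pathway genes ANKRD1, a YAP target, went from 93 to 209 counts (1.16), and STK4 from 866 to 1917 (1.14) with an FPKM log2 ratio of -0.08.

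Several epithelial lists had positive medians. All 9 keratins measured had a positive ratio with a median of 0.48, and 2 were past 2-fold, KRT80, from 2391 to 5154 counts (1.10, 1.03 to 1.17), and KRT15, from 104 to 246 (1.24, 0.90 to 1.58), with an FPKM log2 ratio of 0.79. KRT8, the most abundant, went from 38674 to 53301 counts (0.46, 0.44 to 0.48). Of 8 mucins, 2 of them measured through the irradiated library only, none was past 2-fold and the median was 0.56. The 16 tight junction genes had 9 negative ratios and a median of -0.07 in counts and 0.06 in FPKM, and CLDN12, a claudin, went from 652 to 204 counts (-1.68) with an FPKM log2 ratio of -0.68. Of the secretory epithelial products 6 of 21 were measured, 3 of them through the irradiated library only. CTSE, a gastric-type protease, went from 11 to 54 counts (2.29, 1.34 to 3.37, in FPKM 2.96). Among 18 epithelial state genes the median was 0.30 and CD24, a surface glycoprotein, went from 74 to 202 counts (1.44, 1.05 to 1.85).

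Of 25 matrix genes measured, 22 had a positive count ratio but 17 a higher FPKM. The median count ratio was 0.34, or 0.27 over the 20 at an FPKM of 1 in both libraries. COL17A1, a hemidesmosome collagen, went from 35 to 253 counts (2.85, 2.33 to 3.40, in FPKM 3.83). COL16A1, beside an opposite change in its neighbour PEF1, went from 32 to 103 (1.68, 1.10 to 2.30). PLAT, the tissue plasminogen activator gene, went from 41 to 138 (1.75, 1.23 to 2.29). These 3 genes, like CTSE, S100A3 and ZEB1, were under an FPKM of 1 in the unirradiated library. Among the 10 S100 genes S100A11 went from 1255 to 2179 counts (0.79) and S100A3, with 8 and 21 counts, was the one past 2-fold. Of 7 mesenchymal genes measured ZEB1, a repressor of epithelial genes, went from 14 to 66 counts (2.23, 1.38 to 3.18), and VIM, the gene of the mesenchymal filament vimentin, chosen after its values were seen, was under an FPKM of 1 with 17 and 0 counts.

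A few other higher genes lie outside the lists and were chosen after their values were seen, so they describe only themselves. SCEL, a precursor of the cornified envelope, went from 37 to 167 counts (2.17, 1.65 to 2.72), SERPINB5, an epithelial serpin, from 44 to 171 (1.95, 1.47 to 2.47), and GJB6, a gap junction gene, from 16 to 65 (2.02, 1.21 to 2.91). The interleukin-1 antagonist gene IL1RN went from 105 to 387 counts (1.88, 1.56 to 2.20) and the decoy receptor gene IL1R2 from 21 to 115 (2.45, 1.77 to 3.19).

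The 12 protein-coding genes with the highest ratios, among 80 that were higher past 2-fold in both measures, had over 3 counts in each library and reached 5 FPKM, began with HIST1H2BN and BTG2. They included PI3, the elastase inhibitor elafin, from 13 to 117 counts (3.16, 2.33 to 4.12), CPA4, a secreted carboxypeptidase, from 43 to 303 (2.81, 2.35 to 3.31), TNFRSF10C and MYC. Others were AL591806.3 (15 and 154 counts), C1GALT1C1, a chaperone of O-glycosylation (58 and 400), and TRIM32, a ubiquitin ligase (122 and 826). CCDC137 (134 and 691, a log2 ratio of 2.36 in counts and 1.48 in FPKM) and C19orf53 (110 and 560) were also among them. BTG2, CPA4 and AL591806.3 were under an FPKM of 1 in the unirradiated library. AL591806.3 also lies beside an opposite change in its neighbour USF1.

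The 12 lowest ratios, among 105 genes chosen likewise, were led by HIST1H2BE, HIST1H2AC and HIST1H2AD, with HIST1H2BM last. Between them stood BRI3BP (2818 and 288 counts), RAB43, a small GTPase (580 and 96), and TMEM250 (1435 and 244). PRDM2, a histone methyltransferase gene (1833 and 318), and the zinc finger gene ZNF468 (608 and 119) stood there too. In counts and FPKM, the log2 ratios were -2.56 and -1.97 for TMEM250, -2.53 and -1.53 for PRDM2 and -2.36 and -1.72 for ZNF468. The remaining 3, AP002990.1, AC020915.5 and AC116366.3, are protein-coding rows with clone-based names that share exon sequence with other genes, with 768 and 104, 336 and 59, and 1448 and 286 counts. Of these 12 genes 6 share exon sequence on their strand with another gene, and 3 of the 12 with the highest ratios do.

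Long noncoding RNAs were past 2-fold more often than protein-coding genes (13.9% against 4.83%), but at lower counts. Of 1779, 247 were past 2-fold, 110 higher and 137 lower. Their extremes meeting the rule were AC087190.3, from 35 to 3028 counts (6.43, 5.95 to 6.95), and HCP5, from 356 to 15 (-4.57, -5.43 to -3.83; in FPKM -3.22). AC087190.3 lies within C16orf72, which went from 5874 to 2430 counts. HCP5 shares exon sequence with MICA. AC087190.3 was under an FPKM of 1 in the unirradiated library, and HCP5 in the irradiated library. Among the others, AL138759.1 went from 65 to 245 counts (1.91) and SNHG20, a small nucleolar RNA host gene, from 452 to 156 (-1.54). LINC01133, measured through the irradiated library only, went from 23 to 96 (2.06, 1.39 to 2.78).

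At some loci adjacent rows changed in opposite directions. For 135 of the 1001 genes past 2-fold (13.5%), another row on the same strand within 10 kb changed in the opposite direction by 50% to 200% of the gene's own scaled counts. OIP5-AS1 went from 2278 to 311 counts (-2.88) but from 17.1 to 9.29 FPKM, an FPKM log2 ratio of -0.88, and CHP1, its neighbour, from 683 to 2380 counts. CASP10, COL16A1, GABARAP and SNHG20 are also among the 135. RAB43 went from 580 to 96 while the readthrough row ISY1-RAB43 went from 0 to 340. In the mitochondrial genome MT-ATP6 went from 17230 to 74171 counts (2.10), while its overlapping neighbours MT-ATP8 and MT-CO3 had ratios of 0.22 and 0.20 and the list of 13 had a median of 0.29. Exon overlap on the same strand was present for 204 of the 1001 genes past 2-fold (20.4%) and for 1725 of all 15731 measured. Which row these reads belong to was not tested.

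**Figure D3:**
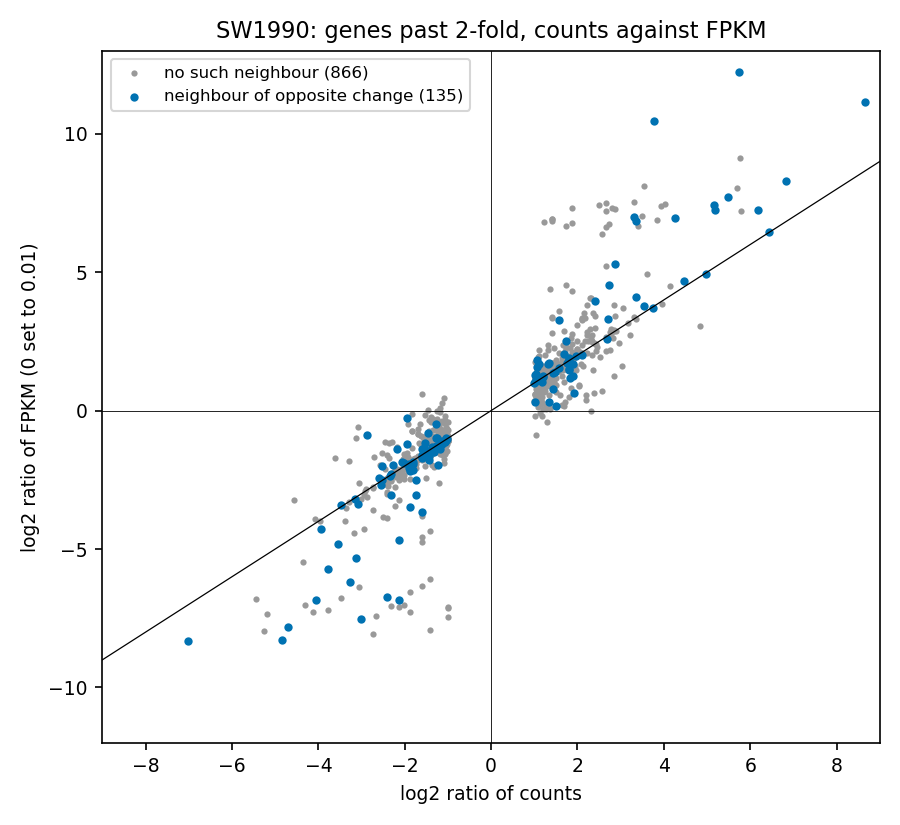
Log2 ratio of FPKM (0 set to 0.01) against log2 ratio of counts for the 1001 genes past 2-fold, with the line of equality; the 135 genes with a same-strand neighbour of opposite change are blue and the other 866 grey. In 836 of the 1001 genes the FPKM ratio is also past 2-fold in the same direction.

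Most metabolic and housekeeping lists had medians near 0. Medians were 0.04 for 78 nuclear oxidative phosphorylation genes, -0.06 for 80 cytosolic ribosomal protein genes, -0.03 for 42 proteasome genes, 0.03 for 21 heat shock genes, 0.05 for 20 unfolded protein response genes and -0.05 for 29 NRF2 antioxidant genes, with none past 2-fold in any of these 6 lists. Of 24 glycolysis genes 19 had a positive ratio, 1 was higher and 2 were lower past 2-fold in counts, and none of these 3 was past 2-fold in FPKM. The enolase gene ENO2 went from 1288 to 646 counts, with an FPKM log2 ratio of -0.40. The lactate carriers split, with SLC16A3 going from 393 to 887 counts (1.17, in FPKM 0.96) and SLC16A1 from 4296 to 2054 (-1.07, in FPKM -0.91). Of 38 cholesterol and fatty acid synthesis genes 30 had a positive ratio, 2 were higher past 2-fold and the median was 0.15. Over the 37 at an FPKM of 1 in both libraries 1 was higher past 2-fold. INSIG2, 1 of the 2, had a log2 ratio of 1.09 in counts but 0.12 in FPKM. The 20 SR splicing factor genes had 18 negative ratios and a median of -0.21, and the 10 high mobility group genes -0.28, with none past 2-fold in either. A few members of other lists stood out. MRPL30, a mitochondrial ribosomal protein gene, went from 349 to 1525 counts (2.12, 1.95 to 2.29), with exon overlap on its strand. The 77 genes of its list had a median of -0.08, and 2 were past 2-fold. The second was MRPL34, with a log2 ratio of 1.01 in counts and 0.61 in FPKM. MT1X, a metallothionein, went from 152 to 66 counts (-1.21, -1.65 to -0.78).

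Vesicle and microRNA genes, which relate to the study's interest in exosomes, differed little at the RNA level. Of 67 vesicle traffic genes 1 was past 2-fold, RAB5B, an early endosome GTPase, from 476 to 203 counts (-1.23, -1.48 to -0.99), and the median was 0.07. The tetraspanin genes CD9, CD63 and CD81 had ratios of 0.12, -0.04 and 0.09, and RAB27A, a GTPase of exosome release, -0.14. Of 50 lysosome and autophagy genes 3 were past 2-fold, among them NEU1, a lysosomal sialidase, from 299 to 740 counts (log2 1.3). The autophagy genes MAP1LC3A and GABARAP differed in opposite directions. MAP1LC3A, measured through the irradiated library only, went from 15 to 45 counts (1.58, 0.71 to 2.53). GABARAP went from 617 to 256 (-1.27, -1.49 to -1.06), with an FPKM log2 ratio of -0.48. None of 19 microRNA pathway genes was past 2-fold. E2F3 went from 416 to 566 counts (0.44, 0.25 to 0.62) and HMGA2 from 1033 to 795 (-0.38), while ALDH1A1 had 0 and 4 counts, beside a floor of 3.

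The most abundant RNAs did not differ much. RN7SL1, the signal recognition particle RNA, led both libraries at 39523 and 39654 FPKM (0.03), followed in both by RN7SL2, and the other 8 of the 10 highest were RN7SK, RMRP, RPPH1, RN7SL4P, RN7SL5P and the mitochondrial genes MT-ND4, MT-CO1 and MT-CO2 in each library. The 5 listed RNAs without a poly(A) tail were RN7SL1, RN7SL2, RN7SK, RMRP and RPPH1. They took 4.62% of the unirradiated and 4.60% of the irradiated counts, beside histone mRNAs that lack the tail as well. Their log2 ratios ran from -0.13 (RN7SL2) to 0.34 (RMRP). RN7SL4P and RN7SL5P, outside these 5, had -0.28 and -0.07. Mitochondrial genes took 4.42% and 5.56%, or 4.32% and 5.15% without MT-ATP6.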

How the data were processed

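RNA of SW1990 cells was sequenced by the authors from 1 unirradiated and 1 irradiated library. The submitters' processing notes name CASAVA 1.8, FastQC 0.11.2, Trimmomatic 0.36, HISAT2 2.0, StringTie 1.3.3b, DESeq2 1.12.4 and GRCh38. The authors deposited raw counts per gene, whose counting tool is not given in the sources used here, and FPKM values normalized for length and library size. The labels call the RNA rRNA depleted, while the named kit is for mRNA.

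Rows that name no gene (1089, 0.487% and 0.453% of counts) were left out. Counts were scaled by TMM (edgeR 4.0.16, R 4.3.3). Ratios set libraries at 3 counts or fewer to 3, the limit that a count of 0 allows, and FPKM ratios set 0 to 0.01. Annotation was GENCODE 29 (57836 identifiers matched, 27 names restored from dates). Members and lists were chosen with earlier results of these data known. Intervals and floors cover counting error only. Named genes were the 12 largest rises and falls of protein-coding genes and 5 of long noncoding RNAs, list members past 2-fold and up to 4 others with 100 counts or more, the 10 highest FPKM values, genes the study names and cell type markers. Other genes were named after their values were seen. Some genes that the rule names are not reported here. Alternatives varied scaling, FPKM filter, fold limit and interval, with Python 3.11.15 and scipy 1.17.1.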

Additional observations from a re-analysis of the deposited data

Results flagged for a closer look

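Of the 769 loci without a gene name at an FPKM of at least 1, 93 were higher past 2-fold in the irradiated library and 96 lower, 24.6% in all, against 6.36% of the genes measured and 15.8% of those with a mean count under 30. These rows lie outside the comparison of named genes and had a median log2 ratio of -0.12. One of them overlaps BRI3BP on chromosome 12, on the same strand, and went from 160 to 830 counts, while BRI3BP went from 2818 to 288.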

How the results depend on the processing

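Counts of genes past 2-fold depended on the filter and the limit. Ratios of FPKM gave 1662 genes (775 higher, 887 lower), no FPKM filter with at least 10 counts 1824 (1018 and 806, and 1617 in counts and FPKM), and an FPKM of at least 5 gave 326 (154 and 172, and 238). A limit of 1.5-fold gave 2187 (1162 and 1025, and 1778), 4-fold 221 (112 and 109, and 185), and an interval wholly past 2-fold 374 (203 and 171, and 315). Scaling by library totals, DESeq2 size factors or upper quartile kept every count within 1.5 times, as did leaving out genes with offsetting neighbours, which was chosen after seeing the data. Among lists with 5 or more members measured, the 14 medians of at least 0.25 in size kept their sign under the 5 alternatives run. With an FPKM of at least 5, that of secretory products went from 0.88 to 0.42. Those of mesenchymal genes went from 0.32 to 0.17 and of S100 genes from 0.41 to 0.27. Of 145 named genes, FPKM moved the ratio of 45 outside its counting interval and reversed that of STK4, to -0.0762, and library totals moved 11. The cause was not tested. No paired analysis was possible because each group has 1 library.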

Other observations

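Zinc finger genes of chromosome 19, a list chosen after their values were seen, had 135 members measured, 9 of them through the unirradiated library only and 1 through the irradiated library only. Of the 135, 5 were higher and 14 lower past 2-fold, with a median of -0.13. Together these are 14.1%, against 7.21% of protein-coding genes measured on chromosome 19 and 4.83% of all protein-coding genes. Over the 125 at an FPKM of 1 in both libraries 5 were higher and 7 lower, with a median of -0.10. ZNF497, the lowest of the list and measured through the unirradiated library only, went from 114 to 0 counts. With the 0 set to the floor of 3 counts, this is 38-fold lower. ZNF571 went from 61 to 3. ZNF551 was among the higher, from 257 to 656 counts (1.35), with an FPKM log2 ratio of 0.56. Among protein-coding genes on chromosome 6, 52 were lower and 15 higher past 2-fold of 631 (10.6% in all), and 39 of the 52 were replication-dependent histones.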
